A study of Mus musculus with 10 samples.

Results

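The non-opioid neuropeptides of primary sensory neurons are the subject here: 10 precursor genes (Tac1, Adcyap1, Gal, Nppb, Sst, Nts, Npy, Vip, Cck and Grp), taken by name from a table of 45952 gene rows. Their RNA was measured in neurons sorted from the ganglia of naïve Avil-EGFP mice (STOCK Tg(Avil-EGFP)QD84Gsat/Mmucd, a BAC transgenic line on a CD1 background, adults of both sexes), in which the advillin promoter drives EGFP in sensory neurons. There were 6 libraries from lumbar dorsal root ganglia (DRG, 3 male and 3 female) and 4 from trigeminal ganglia (TG, 2 male and 2 female), each from 1 mouse, and the sources used here do not say whether a DRG and a TG library came from the same animal. All mice carried the transgene and none was injured. GFP-positive, propidium iodide-negative cells were collected, a procedure that favours small and medium neurons, and the labels name satellite glial cells as a contaminant. Of the 10 genes, 6 passed the filter on low values (at least 1 FPKM in at least 2 replicates of either ganglion) and 4 did not. FPKM counts sequenced fragments relative to transcript length and to library depth, so levels below are per length. The question was which of these peptides DRG and TG neurons express, and whether the ganglia or the sexes differ in them.

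Neuropeptides are cut from larger precursors at pairs of basic residues, stored in dense-core vesicles and released onto spinal or brainstem neurons and into skin or meninges, where they act on G protein-coupled receptors or, for natriuretic peptides, on receptor guanylyl cyclases. In sensory ganglia they also divide neurons into classes. Tac1, whose substance P drives neurogenic inflammation, and Adcyap1, whose PACAP is studied in migraine, mark peptidergic nociceptors. Nppb, Sst and Nts are in mouse the hallmark peptides of 1 class of non-peptidergic itch neurons, which also carry the interleukin-31 receptor. Gal, Npy and Vip are best known in these ganglia for their rise after nerve injury, and Cck and Grp have a debated place in uninjured neurons.

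The coding stretches of the mature peptides of the 6 detected precursors are shown because they are what the counted transcripts encode. They come from the GENCODE M21 transcripts of the mouse genome (build GRCm38), 5′ to 3′ on the coding strand, with the codons of the mature peptide in capitals. Lower case letters are neighbouring codons of the precursor, among them the basic cleavage codons, the glycine codon that yields a C-terminal amide where there is one, and the stop codon where the peptide ends the precursor.
substance P: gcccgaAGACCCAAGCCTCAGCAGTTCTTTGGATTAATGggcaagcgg
neurokinin A: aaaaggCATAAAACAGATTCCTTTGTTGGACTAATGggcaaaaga
PACAP: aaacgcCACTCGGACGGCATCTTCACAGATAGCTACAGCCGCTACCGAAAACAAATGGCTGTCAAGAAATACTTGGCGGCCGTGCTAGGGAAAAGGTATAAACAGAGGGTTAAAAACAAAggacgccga
galanin: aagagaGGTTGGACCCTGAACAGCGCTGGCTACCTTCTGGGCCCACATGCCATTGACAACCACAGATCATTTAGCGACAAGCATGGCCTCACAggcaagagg
B-type natriuretic peptide: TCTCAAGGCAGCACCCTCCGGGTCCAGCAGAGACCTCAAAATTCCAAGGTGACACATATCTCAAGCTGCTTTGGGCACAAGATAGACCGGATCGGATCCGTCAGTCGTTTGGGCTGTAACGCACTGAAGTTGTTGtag
somatostatin: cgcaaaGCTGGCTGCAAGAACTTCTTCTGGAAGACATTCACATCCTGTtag
neurotensin: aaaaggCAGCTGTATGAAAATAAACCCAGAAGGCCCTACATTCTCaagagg
Substance P took 11 codons and neurokinin A, a related tachykinin, 10 codons of the same 130-codon Tac1 precursor. Some Tac1 splice forms leave out neurokinin A, and a gene-level value does not separate them. PACAP took 38 of 175 codons in Adcyap1, galanin 29 of 141 in Gal, and neurotensin 13 of 169 in Nts. Somatostatin took the last 14 of 116 codons in Sst, and B-type natriuretic peptide, in the long form known in rodents, the last 45 of 121 in Nppb.

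The detected precursors lie on 6 chromosomes (GRCm38). Nppb (ENSMUSG00000029019) is on chromosome 4 at 147985788 to 147987205 (+ strand), Tac1 (ENSMUSG00000061762) on chromosome 6 at 7554879 to 7565834 (+), and Nts (ENSMUSG00000019890) on chromosome 10 at 102481756 to 102490486 (− strand). Sst (ENSMUSG00000004366) is on chromosome 16 at 23889573 to 23890958 (−), Adcyap1 (ENSMUSG00000024256) on chromosome 17 at 93199017 to 93206537 (+), and Gal (ENSMUSG00000024907) on chromosome 19 at 3409915 to 3414544 (−). No other annotated gene overlapped any of the 6, so counting without regard to strand would touch none of them.

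The 9 measured sensory neuron markers summed to 4720 to 5947 FPKM in DRG and 5332 to 5681 FPKM in TG. That sum covers opposite shifts of single markers in male DRG replicate 3. Avil stood there at 172 FPKM (555 to 1118 in the other DRG libraries) and Pou4f1 at 68.1 FPKM (300 to 507). Uchl1 stood there at 3613 FPKM (1229 to 1679 in the other DRG libraries). Satellite glia markers summed to 1487 to 4896 FPKM in DRG and 4131 to 5447 FPKM in TG. Apoe had the highest mean among them, 2248 FPKM in DRG and 3914 FPKM in TG. The fitted mean was nevertheless higher in DRG for 7 of the 10 satellite glia markers. Summed Schwann cell markers ran from 867 to 1371 FPKM in DRG and from 1317 to 1906 FPKM in TG, while endothelial markers did not exceed 2.51 FPKM in sum in any library. Libraries held 10820 to 11503 genes at 1 FPKM or more. Male DRG replicate 3 stood apart from the rest. Its FPKM summed to 870872 over all genes against 543862 to 646684 in the other 9 libraries, and against the other DRG libraries its 1146 detected genes with transcripts under 1000 bases had a median of 0.93 log2 units more and its 4387 genes with transcripts of 4000 bases or more a median of 0.61 log2 units less (−0.61). In the other 9 libraries the same medians lay between −0.50 and 0.36 for short transcripts and between −0.13 and 0.28 for long ones. Nppb (781 bases), Sst (721 bases) and Gal (788 bases) have short transcripts, and Tac1 (1975 bases) and Adcyap1 (3392 bases) longer ones. The log2 fold changes of the 6 detected neuropeptides are therefore given with and without that library, and so are those of the other genes where leaving it out changed a call.

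Tac1 dominated the group. It was the most abundant member in all 10 libraries, ranking 77th in DRG and 70th in TG among 12637 detected genes. Its share of the summed FPKM of the 10 genes was 79.3% ± 6.80 (SD, n = 6) in DRG and 85.7% ± 2.11 (SD, n = 4) in TG. Gal followed in TG, and in DRG Gal and Sst followed, at ranks 1086 and 1469. Adcyap1 and Nts were the lowest of the detected genes in DRG, at ranks 3388 and 3812. The order by mean level in DRG was Tac1, Gal, Sst, Nppb, Adcyap1 and Nts, and apart from Tac1 each gene's range over the DRG libraries overlapped that of its neighbour. In TG the order was Tac1, Gal, Sst, Adcyap1, Nppb and Nts. There Gal (lowest library 53.6 FPKM) did not overlap Sst (highest 50.0 FPKM), and Sst (lowest 29.3 FPKM) did not overlap Adcyap1 (highest 21.1 FPKM).

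**Figure D1:**
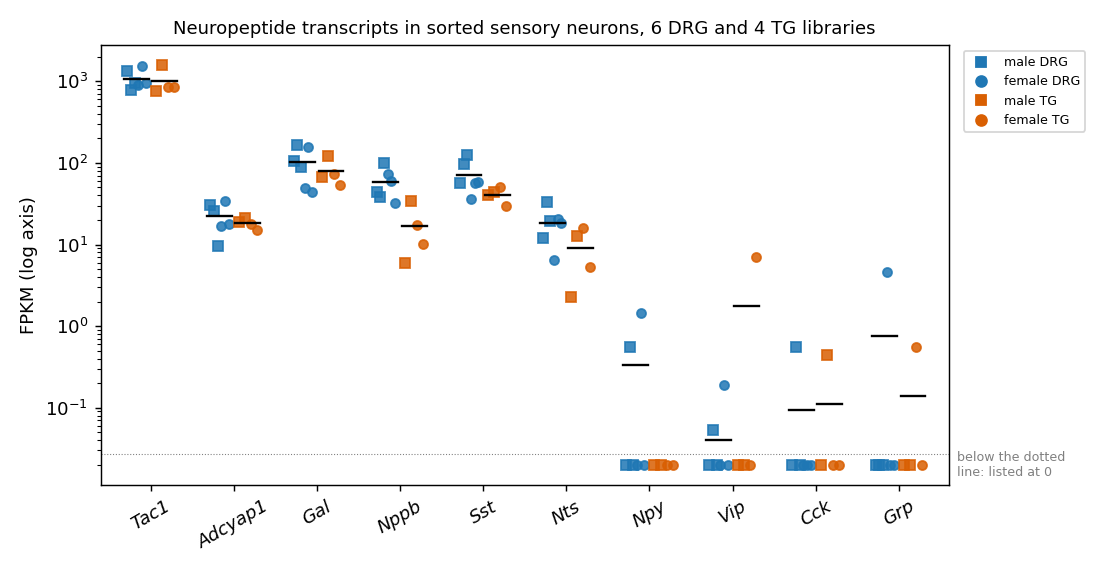
FPKM (log axis) of the 10 neuropeptide precursors in each library, with DRG in blue, TG in orange, males as squares, females as circles and black bars at the mean of each ganglion. 6 genes were present in every library, led by Tac1 near 1000 FPKM, while Npy, Vip, Cck and Grp were listed at 0 in most libraries.

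Tac1, the precursor of substance P and neurokinin A, was level between the ganglia. In DRG it ran from 778 FPKM through a median of 952 to 1544, and in TG the libraries held 766, 1600, 849 and 846 FPKM. The highest library of all was a TG library, male replicate 2, and the lowest was the other male TG library. The log2 fold change of DRG over TG was 0.11 (SE 0.27, 95% interval −0.48 to 0.70, limma adjusted p = 0.934). Without male DRG replicate 3 it was 0.15 (adjusted p = 0.888). Leaving out female DRG replicate 2 or male TG replicate 1 moved it to −0.026 or −0.034.

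Adcyap1 encodes PACAP, a vasodilator and mast cell activator. It had a median of 21.8 FPKM in DRG, with a lowest library of 9.65 and a highest of 34.3. The TG libraries held 18.6, 21.1, 17.8 and 15.1 FPKM. Adcyap1 was thus both higher and lower in DRG than anywhere in TG: its coefficient of variation was 0.415 in DRG and 0.136 in TG, beside medians over all detected genes of 0.426 and 0.220. The lowest value of all was in male DRG replicate 3. The log2 fold change was 0.20 (SE 0.32, 95% interval −0.51 to 0.90, limma adjusted p = 0.906). Without that library it was 0.44, with a limma adjusted p of 0.630.

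Gal encodes galanin, an inhibitory peptide that sensory neurons make in quantity after axotomy. It was present in all 10 libraries, which came from uninjured mice. The DRG libraries ranged from 44.5 to 164.5 FPKM with a median of 97.7, and the TG libraries held 67.8, 121, 72.5 and 53.6 FPKM. The lowest and the highest library were both from DRG. DRG over TG stood at 0.26 on the log2 scale (SE 0.35, 95% interval −0.50 to 1.03, limma adjusted p = 0.896), and at 0.34 without male DRG replicate 3 (adjusted p = 0.799).

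The 3 peptides of the itch neurons had higher means in DRG than in TG, and Nppb showed the widest gap. Nppb encodes B-type natriuretic peptide, which itch neurons release onto spinal interneurons. The male DRG libraries held 43.4, 38.6 and 98.8 FPKM and the female ones 73.4, 59.7 and 32.6. The male TG libraries held 5.87 and 34.6 FPKM and the female ones 17.3 and 10.2. Every DRG library thus lay above 3 of the 4 TG libraries, and only male TG replicate 2 reached into the DRG range, above female DRG replicate 3. The means were 57.7 ± 25.0 FPKM (SD, n = 6) and 17 ± 12.6 FPKM (SD, n = 4), a ratio of 3.39. The log2 fold change was 1.87 (SE 0.44, 95% interval 0.90 to 2.83), and the exact two-sided permutation test of Nppb alone over all 210 ways to divide the libraries gave p = 0.00952, where 0.00476 is the smallest p it allows. Only 0.269% of all detected genes had a larger fold change towards DRG. Adjusted over 12637 genes the limma p was 0.233, so Nppb did not pass. With weights for the quality of each library it did (log2 fold change 2.16, limma adjusted p = 0.0235), a setting that called 0.522% of all genes higher in DRG. Over all alternatives the adjusted p ran from 0.0235 to 0.809. Without male DRG replicate 3 the log2 fold change was 1.68 (adjusted p = 0.336).

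Sst encodes somatostatin, an inhibitory peptide. In DRG it ran from 36.4 FPKM through a median of 57.5 to 127, and the TG libraries held 40.0, 44.2, 50.0 and 29.3 FPKM. The lone DRG library inside the TG range was female replicate 1, and the highest DRG library was male replicate 3, the one in which short transcripts were raised. The means were 72.0 ± 33.4 FPKM (SD, n = 6) and 40.9 ± 8.75 FPKM (SD, n = 4). The log2 fold change was 0.71 (SE 0.28, 95% interval 0.09 to 1.32, limma adjusted p = 0.756), and 0.56 without male DRG replicate 3 (adjusted p = 0.614).

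Nts encodes neurotensin, best known for effects on body temperature and dopamine neurons. Its DRG libraries ranged from 6.54 to 33.6 FPKM with a median of 18.8, and the TG libraries held 2.25, 12.7, 15.9 and 5.27 FPKM. DRG female replicate 1 was the lowest of its group for Sst and Nts alike, and male TG replicate 1 was the lowest of all libraries for Nppb and Nts. The log2 fold change was 1.08 (SE 0.50, 95% interval −0.02 to 2.17, limma adjusted p = 0.772). Without male DRG replicate 3 it was 1.04 (adjusted p = 0.641). Without male TG replicate 1 it was 0.55 (adjusted p = 0.994), the lowest value over the alternatives.

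**Figure D2:**
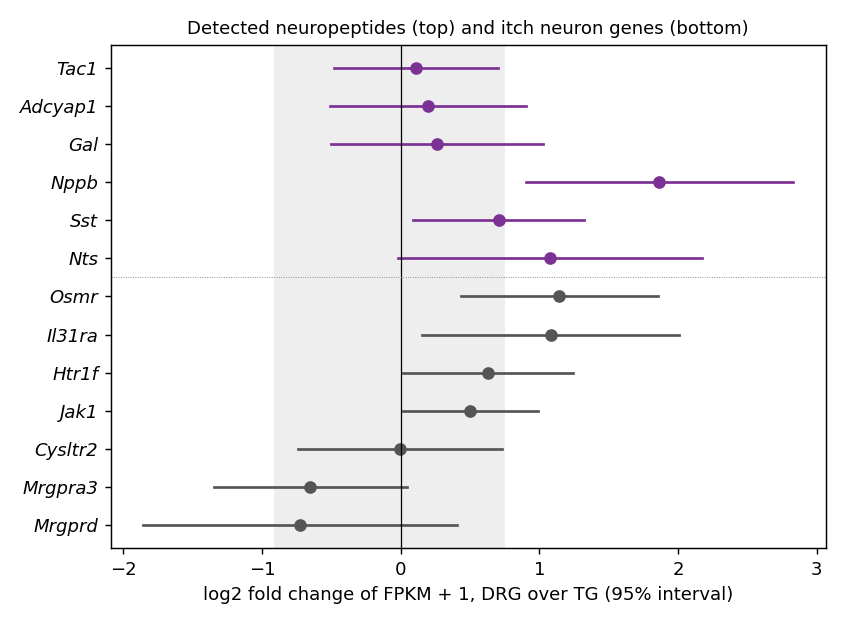
Log2 fold changes of FPKM + 1 (DRG over TG) with 95% intervals from limma for the 6 detected neuropeptides (purple) and 7 itch neuron genes (grey), over a grey band that holds the middle 95% of all 12637 detected genes (−0.91 to 0.75). Nppb (1.87), Nts (1.08), Osmr (1.14) and Il31ra (1.08) lie to the right of the band, and Tac1, Adcyap1 and Gal sit near 0.

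Counted together, 0 of the 6 detected neuropeptides passed the adjusted threshold of 0.05 between DRG and TG, against a background of 14 of 12637 genes (0.111%). At an unadjusted p under 0.05, 2 of the 6 (Nppb and Sst) were higher in DRG, where 289 of all genes (2.29%) were. The exact permutation test, which has no sex term, gave unadjusted p = 0.00952 for Nppb, 0.0810 for Sst and 0.1 for Nts. It gave 0.571 for Gal, 0.586 for Adcyap1 and 0.657 for Tac1, so Sst was not under 0.05 in that test. In either direction the limma background at an unadjusted p under 0.05 was 6.35%. The libraries of the ganglia did not overlap for 0 of the 6, against 1.95% of all genes. The fitted mean was higher in DRG for all 6, against 44.3% of all genes, and the median log2 fold change was 0.48 over the 6 and −0.05 over all genes. In bulk libraries such as these, fewer neurons of a class and less RNA per neuron cannot be told apart.

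The library descriptions carry numbers that 4 DRG and 4 TG libraries share, and in those pairs the 3 itch peptides were higher in DRG all 4 times. The share of all genes with that pattern was not computed. The pairs leave out female DRG replicate 1, whose Sst (36.4 FPKM) and Nts (6.54 FPKM) lay within the TG ranges. They also leave out male DRG replicate 1, whose Nts (11.9 FPKM) did so. Nppb in the DRG library was 6.57, 2.85, 3.45 and 3.18 times the level in its TG partner. Sst stood at 2.44, 2.86, 1.12 and 1.98 times. Nts varied more, at 14.9, 1.51, 1.3 and 3.48 times. Tac1, in contrast, was between 0.596 and 1.82 times the TG level, with 1 pair below 1, the pair of male DRG replicate 3 and male TG replicate 2. Adcyap1 was below 1 in that same pair (0.456), as was Gal (0.736), which was also below 1 in the pair of female DRG replicate 3 and female TG replicate 2 (0.830). With the pairs as a replicate block, the 8 libraries gave Nppb a log2 fold change of 1.83 (limma adjusted p = 0.0691), which did not change the call.

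**Figure D3:**
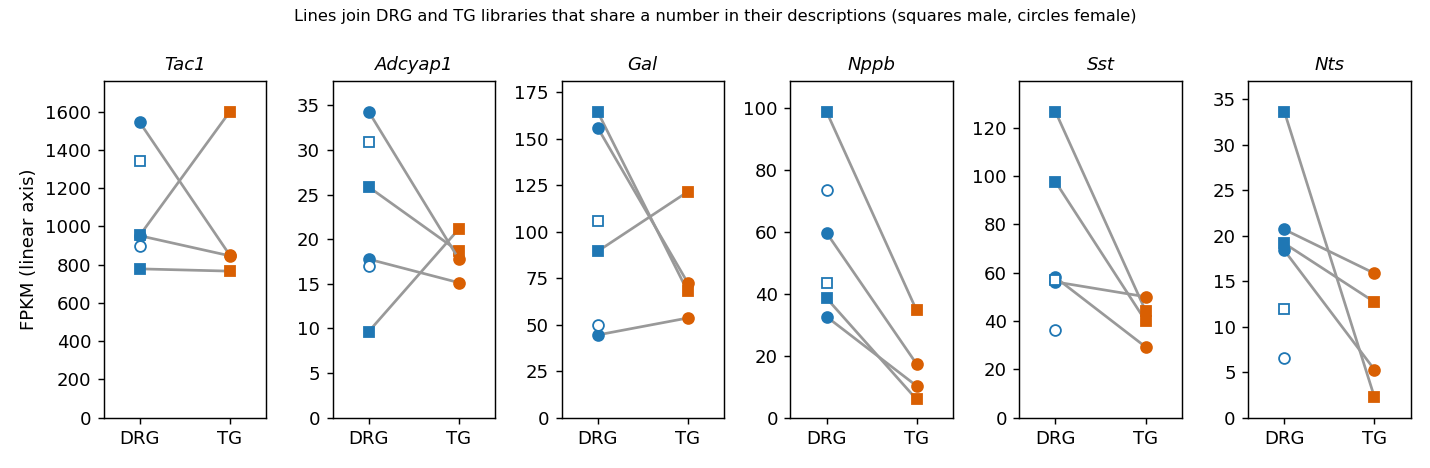
FPKM (linear axes from 0) of the 6 detected neuropeptides, with lines joining the DRG and TG libraries that share a number in their descriptions, squares for males, circles for females and open symbols for the 2 DRG libraries without a partner. All 4 lines fall from DRG to TG for Nppb, Sst and Nts, and at least 1 line rises for Tac1, Adcyap1 and Gal.

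Within a ganglion, the levels of the peptides were only loosely related from library to library. Pearson's r of log2(FPKM + 1) over the 10 libraries, after the ganglion mean was taken away, was highest for Sst with Nts (r = 0.61, Spearman's rho = 0.59, two-sided permutation p = 0.0428 and 0.0803). Adjusted over the 6 relations computed, these p-values were 0.255 and 0.241 (permutation). Without the 2 libraries farthest from the median of Sst, r was 0.61. Nppb, made in mouse by the same neurons, had r = 0.23 and rho = 0.13 with Sst (permutation p = 0.469 and 0.735, adjusted 0.469 and 0.735), and r = 0.28 without the 2 farthest libraries. With Nts it had r = 0.39 and rho = 0.35 (permutation p = 0.363 and 0.415, adjusted 0.436 and 0.540), and −0.10 without the 2 farthest.

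Among the other 3 peptides, Adcyap1 and Gal had r = 0.57 and rho = 0.71 (permutation p = 0.170 and 0.0672, adjusted 0.255 and 0.241), and r = 0.82 without the 2 libraries farthest from the median of Adcyap1, male DRG replicate 3 and female DRG replicate 2. Tac1 and Adcyap1 had r = 0.50 and rho = 0.28 (permutation p = 0.123 and 0.445, adjusted 0.255 and 0.540), and r = 0.25 without the 2 farthest. Tac1 and Gal had r = 0.48 and rho = 0.28 (permutation p = 0.156 and 0.450, adjusted 0.255 and 0.540). Without the 2 farthest, male TG replicate 2 and female DRG replicate 2, r was −0.04, in a narrower range of Tac1. Without male DRG replicate 2 it was 0.83 (permutation adjusted p = 0.0273). With all 10 libraries, none of the 6 relations passed after adjustment.

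Of all detected genes, those whose pattern over the 10 libraries was most like a member's, with the ganglion mean taken away, were mostly not neuropeptide genes. They were Pwwp2a (r = 0.97) and Gm9763 (r = 0.93) for Tac1, Gigyf1 (r = 0.97) and Drc1 (r = 0.96) for Adcyap1, and Cd276 (r = 0.96) and Matn4 (r = 0.94) for Gal. For Nppb they were Chrna1os (r = 0.96) and Tmsb15b2 (r = 0.91), for Sst Relt (r = 0.93) and Syce2 (r = 0.93), and for Nts Reep6 (r = 0.88) and Knstrn (r = 0.86). Each was picked from all detected genes for its r and is a description only. Some had low levels, among them Cd276 (0.393 and 0.874 FPKM in DRG and TG), Reep6 (0.341 and 1.02 FPKM) and Syce2 (0.689 and 0.295 FPKM).

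No member was called between male and female libraries, at adjusted or unadjusted p under 0.05, against 0.0237% and 4.1% of all genes. Sst and Gal came closest, with higher fitted means in males: 0.56 on the log2 scale for Sst (95% interval −0.04 to 1.16, limma adjusted p = 0.816) and 0.64 for Gal (−0.11 to 1.39, adjusted p = 0.816). For Tac1, Adcyap1, Nppb and Nts the fitted difference of male over female lay between 0.03 and 0.09, with intervals that reached 1.13 for Nts and 0.66 for Tac1. The interaction of ganglion and sex was called for 0 of the 6 members and for 0% of all genes (limma), where 0 members and 148 of all genes had an unadjusted p under 0.05. Its intervals were wide, from −2.10 to 1.99 for Nppb.

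Npy, Vip, Cck and Grp were listed at 0 in most libraries, each with values above 0 in a few only. A listed 0 does not show that a transcript was absent: the macrophage gene Csf1r was listed at 0 in 5 DRG and 3 TG libraries, while its mean normalised count over the same libraries, as the authors give it, was 107. Npy, a peptide that large sensory neurons make after nerve injury, was listed at 0.552 FPKM in male DRG replicate 2 and 1.46 in female DRG replicate 2, and at 0 in the other 4 DRG and all 4 TG libraries. Cck, the cholecystokinin precursor, was at 0.562 FPKM in male DRG replicate 2 and 0.442 in male TG replicate 2, and at 0 elsewhere. None of the 4 reached 1 FPKM in more than 1 library.

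Vip and Grp each had 1 library with a value far above the rest. Vip, a peptide of parasympathetic and cholinergic sympathetic neurons, was at 7.04 FPKM in female TG replicate 2, at 0.191 in female DRG replicate 2 and 0.0526 in male DRG replicate 2, and at 0 in the other 7. Female TG replicate 2 was also the only library in which Dbh was listed above 0 (3.39 FPKM), the noradrenaline-making enzyme of sympathetic neurons. Its Th level of 102 FPKM lay within the TG range of 42.8 to 123, and Slc6a2 was at 0 in it. Grp, gastrin-releasing peptide, long discussed as an itch transmitter, was at 4.60 FPKM in female DRG replicate 1, at 0.550 in female TG replicate 1 and at 0 in the other 8. In female DRG replicate 1 a further pair of peptide precursors also peaked, Uts2b at 24.6 FPKM (0 to 2.90 in the others) and Avp at 3.99 FPKM (0 to 0.874 in the others), both picked out after their values were seen. Female TG replicate 1, the other library with Grp, held the pituitary hormone genes Gh at 10.7 FPKM, Prl at 6.45 FPKM and Cga at 0.595 FPKM, where Gh reached at most 0.796 FPKM and Prl and Cga were listed at 0 in the other 9 libraries. The other pituitary markers did not peak in it. Pomc (2.89 FPKM) and Tshb (0.554 FPKM) lay within the range of the other libraries, and Lhb, Fshb and Pou1f1 were listed at 0 in every library. The part of other cell types in the Vip and Grp values was not tested. Without a filter on low values the log2 fold changes of DRG over TG were 0.32 for Npy (limma adjusted p = 0.873), −0.70 for Vip (0.873), −0.02 for Cck (0.965) and 0.26 for Grp (0.895).

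The deposited tables hold other levels of these genes as the authors' means. Their mean normalised count over the same libraries, not divided by transcript length, was 8332 for Tac1, 663 for Gal, 510 for Adcyap1, 331 for Sst, 250 for Nppb and 196 for Nts, and 10.7 for Vip, 2.66 for Grp, 0.995 for Cck and 0.812 for Npy. In magnetically purified DRG neurons of another study, the authors' mean FPKM was 312 for Tac1, 43.6 for Adcyap1, 29.8 for Sst, 27.3 for Nppb, 18.6 for Gal and 13.4 for Nts. Npy, Cck, Grp and Vip stood at 0.143, 0, 0.0417 and 0 FPKM there. These are the authors' means and are given without a spread, since the libraries of that other study were not used here.

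The itch neuron list of 7 genes, which holds receptors and a kinase but none of the peptides, showed the same gap for some members only. All 7 were detected, 0 passed the adjusted threshold, and 4 had an unadjusted p under 0.05 with higher levels in DRG (background 2.29%). Osmr, the oncostatin M receptor subunit that interleukin-31 signals through, held 13.7, 17.1 and 4.30 FPKM in male DRG and 16.3, 13.4 and 20.6 in female DRG, and 4.51, 5.07, 6.0 and 5.90 FPKM in TG. Male DRG replicate 3 was below every TG library and the other 5 DRG libraries were above them all, with a log2 fold change of 1.14 (SE 0.33, limma adjusted p = 0.441). Il31ra, the other subunit, had 12.6 ± 6.59 FPKM (SD, n = 6) in DRG and 4.64 ± 0.514 FPKM (SD, n = 4) in TG, again with male DRG replicate 3 below every TG library, at 2.67 FPKM (log2 fold change 1.08, adjusted p = 0.752). Without male DRG replicate 3 both subunits passed, Osmr at 1.41 (limma adjusted p = 0.016) and Il31ra at 1.45 (adjusted p = 0.0414), where 0.127% of all genes were called higher in DRG. Both also passed with all libraries weighted for quality (1.36 and 1.41, adjusted p = 0.00348 and 0.0116), where 0.522% of all genes were. These alternatives for the list genes were added after the data were seen, and over all of them the adjusted p of each subunit ran up to 1.0, with log2 fold changes of 1.0 to 1.41 for Osmr and 0.84 to 1.57 for Il31ra. Jak1, the kinase downstream of both, and Htr1f, a serotonin receptor, stood at 0.50 and 0.63 on the log2 scale (adjusted p = 0.772 for each). Thus male DRG replicate 3 was the highest DRG library for Nppb and Sst and the lowest for Osmr (transcript of 5491 bases) and Il31ra (3680 bases). Gal, with a short transcript of 788 bases, stood at 89.4 FPKM in it, below the DRG median of 97.7. Of all detected genes, 19.9% had their highest value over the 10 libraries in that library. The part of transcript length in these values was not tested.

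The receptors of other itch neuron classes in the list did not share the direction. Mrgpra3, the chloroquine receptor, had means of 82.3 FPKM in DRG and 121 FPKM in TG, a log2 fold change of −0.65 (limma adjusted p = 0.774), and Mrgprd, a beta-alanine receptor, 146 and 207 FPKM (−0.73, adjusted p = 0.818). Cysltr2, a leukotriene receptor of the Nppb class in mouse, was level at 3.53 and 3.20 FPKM (−0.004, adjusted p = 0.997). Over the list the median log2 fold change was 0.50 against −0.05 for all genes.

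**Figure D4:**
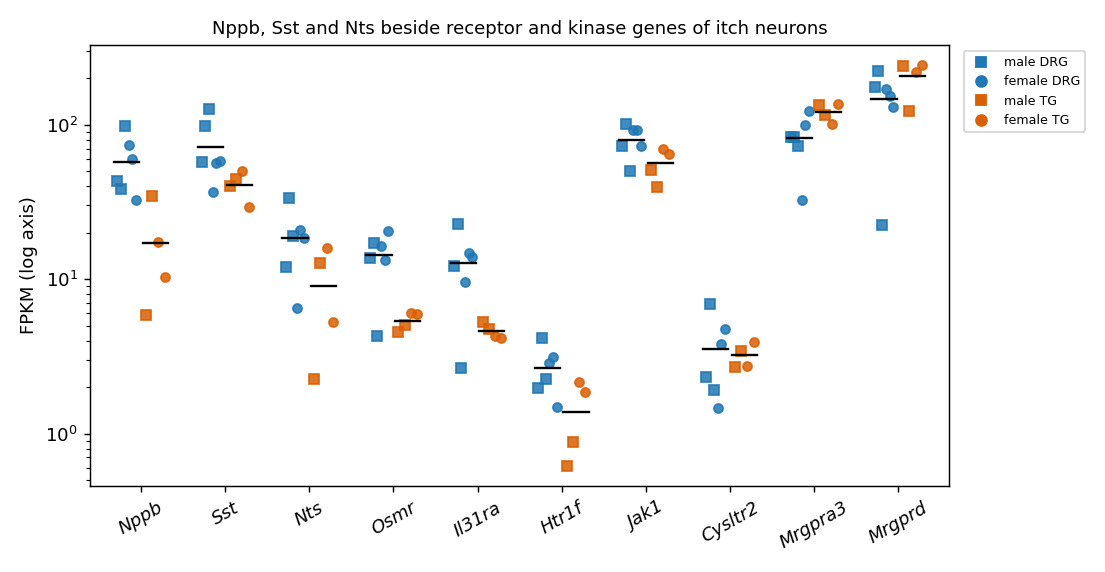
FPKM (log axis) of Nppb, Sst, Nts and 7 receptor and kinase genes of itch neurons in each library, DRG in blue and TG in orange, males as squares, females as circles, black bars at the means. For Osmr and Il31ra, 5 of the 6 DRG libraries lie above every TG library, and for Mrgpra3 and Mrgprd the TG means are the higher.

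The sorted cells also held RNA of receptors for some of these peptides, and which of the cells it came from was not tested. Of 28 receptor genes listed for the member peptides, 27 were in the table and 10 passed the filter, with 0 past the adjusted threshold. At an unadjusted p under 0.05, 2 of the 10 were higher in DRG (background 2.29%) and 1 in TG (background 4.06%). Npy2r, a presynaptic Y2 receptor for neuropeptide Y, held 16.5, 21.5 and 3.34 FPKM in male DRG, 11.5, 17.4 and 18.0 in female DRG, and 1.94, 4.48, 6.96 and 5.72 FPKM in TG. Male DRG replicate 3 lay within the TG range and the other 5 DRG libraries above it (log2 fold change 1.37, SE 0.42, limma adjusted p = 0.544). Without that library the log2 fold change of Npy2r was 1.68 (adjusted p = 0.0799). With weights for library quality it was 1.99 and passed (limma adjusted p = 0.00871, in a range of up to 1.0 over the alternatives). Those weights called 0.522% of all genes higher in DRG. Npy1r, the Y1 receptor, averaged 3.58 and 0.936 FPKM in DRG and TG (log2 fold change 1.1, adjusted p = 0.721). Their ligand gene Npy was listed at or near 0 in the same libraries.

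Cckar, a cholecystokinin receptor, went the other way, at 11.1 ± 4.88 FPKM (SD, n = 6) in DRG and 20.8 ± 6.65 FPKM (SD, n = 4) in TG (log2 fold change −0.94, limma adjusted p = 0.727), again with its ligand gene Cck listed at or near 0. Npr2, the receptor guanylyl cyclase that prefers C-type natriuretic peptide, was the most abundant of the list at 22.3 and 19.5 FPKM. Npr1, through which B-type natriuretic peptide signals, averaged 0.542 and 1.09 FPKM. Galr1 (2.0 and 1.93 FPKM) and Galr2 (1.18 and 2.10 FPKM), for galanin, Sstr2 (1.31 and 0.970 FPKM), for somatostatin, and Ntsr2 (5.28 and 6.86 FPKM), for neurotensin, were low but detected. In the magnetically purified neurons the authors' mean was 0.0117 FPKM for Galr2 and 1.11 FPKM for Ntsr2, beside 3.58 for Galr1, 13.7 for Npy2r and 22.0 for Cckar. The substance P receptor gene Tacr1 reached at most 0.140 FPKM in any library, and the bombesin receptor gene Grpr at most 0.520 FPKM.

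**Figure D5:**
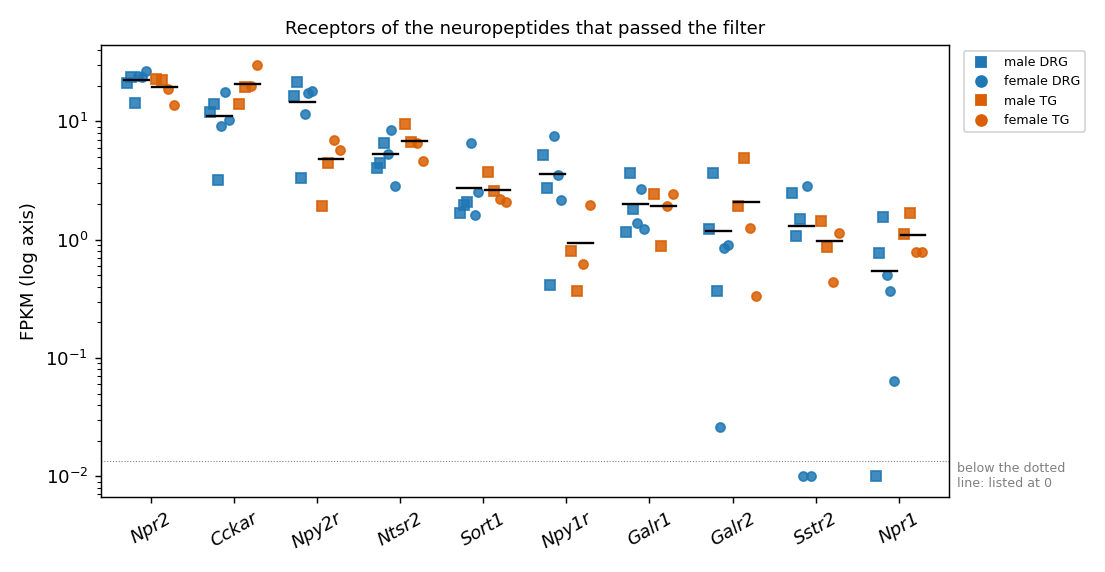
FPKM (log axis) in each library of the 10 receptor genes of the neuropeptides that passed the filter, ordered by mean level, DRG in blue and TG in orange, males as squares, females as circles, black bars at the means. Npy2r and Npy1r have higher means in DRG and Cckar a higher mean in TG.

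RNA of the machinery that makes and stores neuropeptides was detected in both ganglia, at levels that differed widely between genes. All 11 granin and processing genes were detected, with summed levels of 1599 to 1899 FPKM in DRG and 1473 to 1822 FPKM in TG. None passed the adjusted threshold, and at an unadjusted p under 0.05 there was 1 of the 11 higher in DRG and 2 in TG (backgrounds 2.29% and 4.06%). Scg2, the secretogranin II precursor, averaged 255 and 124 FPKM (log2 fold change 1.0, limma adjusted p = 0.286). With male DRG replicate 3 left out Scg2 stood at 1.15 and passed (limma adjusted p = 0.0454), as it did under weights for library quality (1.22, adjusted p = 0.00486), in a range of adjusted p up to 1.0 over the alternatives. Leaving out that library called 0.127% of all genes higher in DRG, and the weights called 0.522%. Chga and Chgb, chromogranins A and B, were lower in DRG, at 87.9 and 140 FPKM (−0.80, adjusted p = 0.756) and at 27.8 and 41.1 FPKM (−0.59, adjusted p = 0.757). Scg5, the chaperone of proprotein convertase 2, Scg3 and Cpe, carboxypeptidase E, were the most abundant, with log2 fold changes of 0.02, −0.08 and 0.30. The lowest of the list in mean level were Vgf (2.32 and 3.37 FPKM in DRG and TG), Pam (15.1 and 13.1 FPKM) and Pcsk1 (15.8 and 14.9 FPKM).

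Among 36 other peptide precursors, 35 were in the table, 12 were detected and 0 had an unadjusted p under 0.05. Nmb, neuromedin B, was the highest at 559 ± 285 FPKM (SD, n = 6) in DRG and 401 ± 104 FPKM (SD, n = 4) in TG, a level between those of Tac1 and Gal, followed by Cartpt (56.5 and 44.0 FPKM) and Nucb2 (9.33 and 9.39 FPKM). The peptidergic nociceptor list, 7 genes of which all were detected, had 2 with an unadjusted p under 0.05 in DRG and 0 in TG (backgrounds 2.29% and 4.06%). They were Calca and Calcb, the precursors of the calcitonin gene-related peptides that Tac1 neurons also make, with log2 fold changes of 1.21 (limma adjusted p = 0.350) and 0.67 (adjusted p = 0.602). Of all alternatives, weights for library quality alone called Calca (1.1, limma adjusted p = 0.034), where 0.522% of all genes were called higher in DRG. Tac1 and Adcyap1 thus had estimates of 0.11 and 0.20 beside 1.21 for Calca, a difference between genes that was not tested. Of 9 axon injury genes, 7 were detected and 1, Sox11, had an unadjusted p under 0.05, higher in TG (log2 fold change −0.56, adjusted p = 0.772). Atf3, the best known injury marker, averaged 8.13 and 6.89 FPKM, with libraries at 4.81 to 12.9 FPKM in DRG and 3.25 to 10.5 FPKM in TG. With no injured libraries to compare, the part of injury or dissociation in the levels of Atf3 and Gal was not tested.

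Markers of other cells moved with the ganglia in part. Schwann cell markers were lower in DRG for all 7 detected genes, 4 of them at an unadjusted p under 0.05 (Mbp −0.74, Ncmap −1.21, Prx −0.63 and Pmp22 −0.48 on the log2 scale, limma adjusted p 0.734 to 0.772), where 4.06% of all genes were lower in DRG at that p and 44.3% had the higher fitted mean in DRG. Of 10 satellite glia markers 1 had an unadjusted p under 0.05, Apoe, lower in DRG (−1.04, limma adjusted p = 0.772). The fitted mean was higher in DRG for 7 of the 10, with a median log2 fold change of 0.16. Of 9 sensory neuron markers 1 had an unadjusted p under 0.05, Isl1, lower in DRG (−0.99, adjusted p = 0.562). Of the 7 sympathetic markers Th alone did, higher in DRG (1.42, limma adjusted p = 0.375), where it also marks a class of low-threshold touch neurons in mouse. Weights for library quality were the only alternative that called Th (1.91, adjusted p = 0.0143), and they called 0.522% of all genes higher in DRG. Dbh and Slc6a2 did not pass the filter. Macrophage (2 of 8 detected), fibroblast (4 of 6), endothelial (0 of 6) and pituitary markers (1 of 8) had 0 genes at an unadjusted p under 0.05. The part of these cells in the levels of Nppb, Sst and Nts was not tested.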

How the data were processed

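RNA from GFP-positive neurons (6 DRG and 4 TG libraries, 1 mouse each) was amplified with a SMARTer low-input kit, sequenced on a HiSeq4000, aligned to mm10 with STAR and summarised by the authors with Cufflinks. The deposited values used were FPKM per gene and library, with no counts, so no counting interval is given. From the commonest ratio of low values, what 1 read was worth differed between libraries by −0.11 to 0.49 on the log2 scale relative to male DRG replicate 1, an estimate that rests on 9 to 60 genes a library. The authors' mean normalised count (a signal per gene from DESeq2, divided by size factors) and their mean FPKM of purified neurons from another study were used as single values. Columns of the authors' comparisons (fold changes, p-values) were not used, and 22 further per-sample columns (libraries of another study, and a repeat of the FPKM) were left out.

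Genes with at least 1 FPKM in at least 2 replicates of DRG or TG (12637) were tested on log2(FPKM + 1), which understates changes of low genes, with limma 3.58.1 in R 4.3.3 (terms for ganglion and sex, trended variance, Benjamini-Hochberg adjustment), and the interaction in a further model. Of these steps, only the limma fit of DRG against TG was tested on simulated data, with independent noise and no shift of a whole library. Single genes were also tested by an exact permutation of libraries, and relations by 100000 permutations within ganglia (scipy 1.17.1). Libraries sharing a description number deviated together in all 4 pairs (r = 0.148, 0.383, 0.169 and 0.180, where 0.1 was required), so these numbers were taken as pairs, and those in the titles were not. Such r do not establish the pairing. Male DRG replicate 2 had r = 0.146 with female TG replicate 1 and 0.145 with female TG replicate 2, beside 0.148 with its partner. P-values measure the spread between libraries, each from 1 mouse. Outside the replicate blocks, the libraries were taken as independent. That would not hold if a DRG and a TG library came from the same mouse, which is not known. Alternatives were other pseudocounts (0.1 and 0.5), filters, scalings, weights, blocks and left-out libraries. The 10 members and 14 gene lists were chosen with earlier results of these data known. Named are all members, the 3 genes of each list with the smallest p and the 3 with the highest mean, the 2 genes most like each detected member, and some others picked after their values were seen.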

Additional observations from a re-analysis of the deposited data

Results flagged for a closer look

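In 7 of 19 sets of member values (a gene in 1 ganglion, with any spread), 1 library lay further from the rest than Dixon's test allows at 95%. Chance flags about 1 in 20 such sets, and sets with nearly all libraries at 0 are flagged by any single value. Tac1 was at 1600 FPKM in male TG replicate 2, against 766 to 849 in the other 3 TG libraries. That library also held the highest TG values of Nppb, Gal and Adcyap1. Vip was at 7.04 FPKM in female TG replicate 2 and at 0.191 FPKM in female DRG replicate 2. Grp was at 4.60 FPKM in female DRG replicate 1 and at 0.550 FPKM in female TG replicate 1. Cck was at 0.562 FPKM in male DRG replicate 2 and at 0.442 FPKM in male TG replicate 2. The cause was not tested for any of them.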

How the results depend on the processing

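Over all alternatives that could be fitted, the log2 fold change of DRG over TG kept its sign for Nppb (1.42 to 2.33), Sst (0.52 to 0.97), Nts (0.55 to 1.72), Adcyap1 (0.04 to 0.70) and Gal (0.01 to 0.84). For Tac1 it reversed without female DRG replicate 2 (−0.026) and without male TG replicate 1 (−0.034), and ran from −0.034 to 0.37 as libraries were left out. Members called stayed at 0 in every comparison, except that weights for library quality called 1 (Nppb, higher in DRG). The same weights called 118 genes between DRG and TG, 5 between the sexes and 1 for the interaction. The cause was not tested. Of the genes of all 14 lists, 0 were called with all libraries, 6 with those weights (Calca, Il31ra, Npy2r, Osmr, Scg2 and Th), 3 without male DRG replicate 3 (Il31ra, Osmr and Scg2) and 1 in the 8 libraries of title numbers without a block (Osmr 1.34, adjusted p = 0.0302), all higher in DRG. These were run after the data were seen, and the 11 list genes followed singly kept their sign under every alternative. Between DRG and TG, 14 genes were called with all libraries, and 11 to 23 when a library was left out, the most without male DRG replicate 3. Without the 3 DRG libraries that stand apart (male 3, female 1 and female 3), 6 genes were called between the sexes and 10 for the interaction, which called 0 with all libraries, 0 to 5 with 1 library left out, 3 with no filter on low values and 3 in the 8 libraries of title numbers without a block. The replicate block on the paired description numbers gave Nppb an adjusted p of 0.0691 (0.604 in the same 8 libraries without it), called 14 genes between DRG and TG and 1 for the interaction (1 without the block), and changed no call of a member. The sex term could not be fitted under the block. Of the 6 relations, 0 to 1 passed as libraries were left out, that 1 being Tac1 with Gal without male DRG replicate 2 (r = 0.83, permutation adjusted p = 0.0273). For Nppb with Sst, r ran from −0.082 to 0.47 and was reversed (−0.082) without male DRG replicate 3. FPKM without counts limits all tests to the spread between 10 libraries, and 4 TG libraries leave the intervals of Nppb, Sst and Nts wide.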
